A study of Homo sapiens with 24 samples.

Results

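The B-cell receptor signalling genes examined here were CD79A, CD79B, LYN, SYK, BTK, BLNK, PIK3AP1, PLCG2 and PIK3CD, and the measurement was chromatin accessibility by ATAC-seq, in which a transposase cuts DNA that is open. A region was counted for a gene if it lay within 10 kb of an annotated transcription start site (TSS) or overlapped the gene body. By this rule 27 of the 26369 distinct regions that CDK9 inhibition (CDK9i) was listed to change in at least 1 comparison belonged to the 9 genes, out of 20163 protein-coding genes annotated. The cells were 2 human diffuse large B-cell lymphoma (DLBCL) lines in culture, VAL and OCI-LY3, grown in RPMI medium with serum and given AZD4573, an inhibitor of CDK9, at 30 nM for 0, 3 or 8 h. Each line and time had 4 of the 24 libraries, 2 by the standard ATAC-seq protocol (50000 cells) and 2 by Fast-ATAC, for which the sample labels give 5000 cells and the methods text 50000. Both treated times were compared with the same untreated libraries of the line, which the lists call DMSO, and no untreated library taken at 3 or 8 h is described. The series describes OCI-LY3 as germinal centre type and VAL as activated B-cell type, the reverse of the usual assignment of these lines, so the subtype was not used.

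The lists hold the coordinates of regions called increased or decreased by the study and no value for any library. Depth and the spread between replicates are therefore unknown, no test between groups was possible, and each result below is a call made by the study or a count of such calls. A region that is not listed may have changed by less than the thresholds. Lists of changed regions hold no level, so the identity of the lines could not be checked against B-cell markers.

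The B-cell receptor is a surface immunoglobulin held by the signalling chains CD79A and CD79B, whose cytoplasmic tyrosines are phosphorylated by the Src-family kinase LYN when antigen binds. The kinase SYK docks on these tyrosines and phosphorylates the adaptor BLNK, which brings the kinase BTK to its substrate, the phospholipase PLCG2. In parallel the adaptor PIK3AP1, also called BCAP, recruits phosphoinositide 3-kinase, whose catalytic subunit p110 delta is the product of PIK3CD. Many B-cell lymphomas depend on this chain, and inhibitors of BTK and of p110 delta are used as drugs against B-cell malignancies.

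Increased regions outnumbered decreased ones at the 9 genes. Of the 27 regions, 21 were listed as increased and 6 as decreased, and 0 were listed in opposite directions in different comparisons. Over the whole series the numbers were 13686 and 12877, with 194 regions listed in both directions. In VAL, 6 regions were increased and 0 decreased after 3 h, and 16 were increased and 1 decreased after 8 h. In OCI-LY3, 5 were increased and 3 decreased after 3 h, and 6 were increased and 3 decreased after 8 h. After 3 h the share of increased regions was 100% in VAL, against 66.5% over all listed regions, and 62.5% in OCI-LY3, against 52.5%. The share was 94.1% in VAL after 8 h, where it was 54.6% over all 20381 listed regions, and 66.7% in OCI-LY3 after 8 h, where it was 55.8% over all 7830. In VAL after 3 h the 6 regions were 2 at CD79A, 1 at CD79B, 2 at PLCG2 and 1 at LYN. On the chromosomes of these genes 99.6%, 98.8%, 97.8% and 52.1% of listed regions were increased. After 8 h CD79A, CD79B and PLCG2 held 2, 2 and 3 of the 16. PIK3CD, on a chromosome with 62.8%, held 6, and SYK, LYN and BLNK held 1 each. The part of the chromosomes in these shares was not tested.

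**Figure D1:**
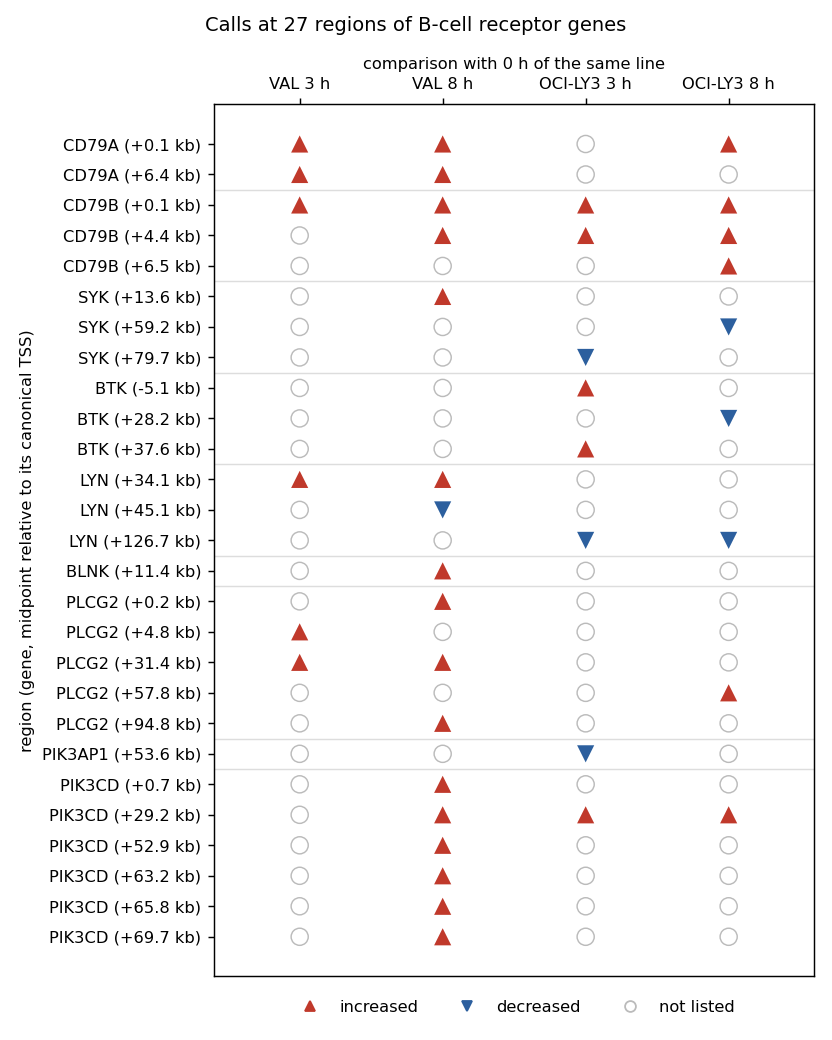
Calls at the 27 regions, 1 row per region named by its gene and by the distance in kb of its midpoint from the gene's canonical TSS, with 1 column per comparison. Red triangles pointing up mark increased regions, blue triangles pointing down decreased ones, and open circles regions not listed. The 6 blue regions lie at SYK, BTK, LYN and PIK3AP1, and the only row filled in all 4 columns is the TSS region of CD79B.

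Counted by gene, 4 of the 9 genes had at least 1 increased region in VAL after 3 h, where 16.9% of all protein-coding genes had one. At 8 h it was 7 of 9 genes in VAL against 36.9% of all. In OCI-LY3 it was 3 of 9 after 3 h against 10.6%, and 4 of 9 after 8 h against 19.0%. Decreased regions were found at 0 of 9 genes in VAL after 3 h against 4.7% of all genes and at 1 of 9 in VAL after 8 h against 14.2%. In OCI-LY3 they were found at 3 of 9 genes after 3 h against 5.29% and at 3 of 9 after 8 h against 8.18%. Most of these decreased regions were counted through gene bodies, and with only the windows around a TSS counted, decreased regions went from 1 to 0 in VAL after 8 h, and in OCI-LY3 from 3 to 1 after 3 h and from 3 to 0 after 8 h. Long genes offer more room for a call, and the median window of the 9 genes was 99.2 kb against 36.8 kb for all protein-coding genes. Per Mb of window, the 9 genes held 18.5 increased regions in VAL after 8 h, where all protein-coding genes held 6.16. The density of decreased regions in the same comparison was 1.16 per Mb against 3.45. In OCI-LY3 after 8 h the 9 genes held more of either kind, with 6.94 increased regions per Mb against 2.41 and 3.47 decreased regions per Mb against 1.28. The lists hold changed regions only, so how many open regions could have been called in each set of genes is unknown.

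**Figure D2:**
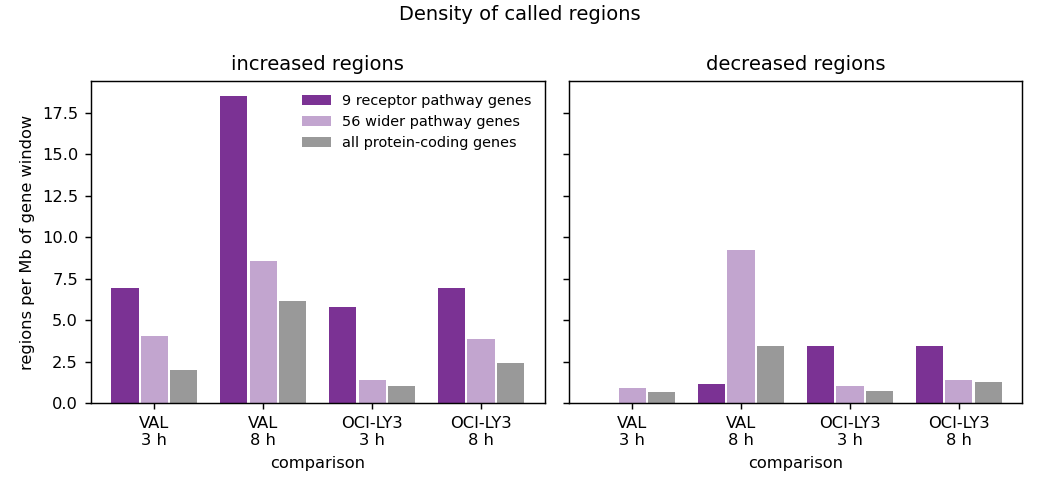
Regions per Mb of gene window (within 10 kb of a TSS or in the gene body) for the 9 genes, for 56 further genes of the pathway and for all protein-coding genes, with increased regions in the left panel and decreased regions in the right panel. For the 9 genes the increased density is highest in VAL after 8 h, at 18.5 per Mb, and the decreased density in the same comparison is 1.16 per Mb.

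The genes of the receptor chains had increased regions at their TSS in both lines. In the hg19 build, in which all coordinates are given, CD79A occupies chr19:42381349-42385439 and is read from the forward strand. A region of 1550 bp at chr19:42380680-42382229 covered its TSS and exon 1, and was increased in VAL after 3 h, in VAL after 8 h and in OCI-LY3 after 8 h, but was not listed in OCI-LY3 after 3 h. A second region, chr19:42386710-42388841, lay beyond the end of the gene and was increased in VAL after 3 and 8 h. It covered the TSS of ARHGEF1, a guanine nucleotide exchange factor, and not that of CD79A.

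CD79B occupies chr17:62006098-62009696 and is read from the reverse strand. Its TSS region, chr17:62008511-62010597, covered exons 1 and 2 and was increased in VAL and in OCI-LY3 at both times. It was the only 1 of the 27 regions listed in all 4 comparisons. The next region, chr17:62004859-62005646, had its midpoint 4.44 kb past the TSS, beyond the end of the gene, and was increased in VAL after 8 h and in OCI-LY3 after 3 and 8 h. Farther out, chr17:62002625-62003766 at 6.50 kb was increased in OCI-LY3 after 8 h only. All 3 also lie in ENSG00000285947, an annotated protein-coding gene that overlaps CD79B and whose TSS the first of them covered too, so the 2 genes cannot be told apart here. With 3 increased regions in OCI-LY3 after 8 h, CD79B was among the 1.27% of protein-coding genes with as many. Nearly all calls on these chromosomes went the same way: on chromosome 19, 99.4% of listed regions were increased in VAL after 8 h and 98.7% in OCI-LY3 after 8 h, and on chromosome 17 the shares were 98.7% and 94.0%. What part this played in the calls at CD79A and CD79B was not tested.

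The CD79A promoter is shown as an example of a promoter whose region was listed in both lines, and the centre of the outermost CD79B region because it held the most motif words of the 27. They are 250 bases before the most upstream TSS, or the central 200 bases of a region, from GRCh37 in the direction of transcription. Capitals mark matches, on either strand, to the words ATGCAAAT (the octamer bound by OCT factors), GAGGAAGT (PU.1 or SpiB), CAGCTG (an E-box) and TGACTCA or TGAGTCA (AP-1), and to spaced words in which any base may fill the gap. These were TCCC and GGGA with 2 bases between (EBF1), GGGA and TTCC with 2 between (NF-kB), GAAA and GAAA with 2 between (IRF), GGAA and GAAA with 2 between (an ETS-IRF composite), and CC, AG and GGC with 3 and then 2 bases between (CTCF core). The IRF and composite words can overlap each other, and the composite can overlap GAGGAAGT.
CD79A promoter, chr19:42381099-42381348, forward strand: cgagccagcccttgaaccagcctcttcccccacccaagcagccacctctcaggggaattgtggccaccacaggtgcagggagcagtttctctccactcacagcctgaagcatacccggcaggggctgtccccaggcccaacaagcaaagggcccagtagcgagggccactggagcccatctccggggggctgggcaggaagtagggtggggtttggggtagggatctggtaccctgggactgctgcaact
CD79B outermost region, chr17:62003095-62003294, reverse strand: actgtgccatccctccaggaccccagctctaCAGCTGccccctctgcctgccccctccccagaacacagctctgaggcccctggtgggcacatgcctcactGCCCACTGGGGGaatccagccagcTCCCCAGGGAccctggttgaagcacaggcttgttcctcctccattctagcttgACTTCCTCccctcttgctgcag

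The CD79A promoter held none of the words in this stretch. The centre of the outermost CD79B region held an E-box, a CTCF core, an EBF1 and a PU.1 or SpiB word, which were found in 13.2%, 7.74%, 0.774% and 2.80% of the central 200 bases of all 26369 regions.

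The 3 kinase genes carried 5 of the 6 decreased regions, 4 of them listed in OCI-LY3. LYN occupies chr8:56792394-56926728, read forward, and its 3 regions differed in line and direction. A region in intron 1, chr8:56826000-56827045, at 34.1 kb from the TSS, was increased in VAL after 3 and 8 h. Another in the same intron, chr8:56836905-56838165, at 45.1 kb, was decreased in VAL after 8 h and was the only decreased region of the 9 genes in that line. The third, chr8:56918547-56919691 in intron 12, was decreased in OCI-LY3 after 3 and 8 h. LYN was therefore the only 1 of the 9 genes with regions of opposite direction in the same comparison, VAL after 8 h. On its chromosome 29.5% of listed regions were increased in VAL after 8 h, and for OCI-LY3 the share was 37.5% after 3 h and 35.8% after 8 h. What part the chromosome background played in the calls at LYN, SYK and BTK was not tested.

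SYK occupies chr9:93564069-93660831, read forward. Its regions also split by line, since the 1 listed in VAL was increased and the 2 listed in OCI-LY3 were decreased. The region chr9:93577179-93578204 in intron 1 was increased in VAL after 8 h. In OCI-LY3 a region in intron 11, chr9:93642858-93644729, was decreased after 3 h and not listed after 8 h, and a region in intron 3, chr9:93622998-93623704, was decreased after 8 h and not listed after 3 h. These are different regions, so whether SYK differed between the lines or times at any 1 region was not tested. No region was listed within 1000 bp of an annotated SYK TSS in any comparison. On chromosome 9 the share of increased regions in OCI-LY3 was 43.2% after 3 h and 55.3% after 8 h.

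BTK occupies chrX:100604326-100645784, read in reverse, and had regions in OCI-LY3 only. The region chrX:100645374-100647089 was increased in OCI-LY3 after 3 h. It covered an alternative BTK TSS upstream of the canonical one together with the TSS of RPL36A, which encodes a ribosomal protein and is transcribed in the opposite direction. A region at the far end of the gene, chrX:100602654-100604508, was also increased in OCI-LY3 after 3 h. It covered the last exon, 19, and the TSS of the neighbouring gene TIMM8A, which encodes a mitochondrial import chaperone. Both increased regions thus included the TSS of another gene, and a change at BTK cannot be told apart there from a change at the neighbour. In OCI-LY3 after 8 h both were absent from the lists and 1 region inside the gene, chrX:100611759-100614196 over exons 11 to 14, was decreased. At 2438 bp this was the widest of the 27 regions. On the X chromosome 67.3% of regions listed in OCI-LY3 after 3 h were increased, and 43.9% of those after 8 h.

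The centres of 2 of these decreased regions are given, the SYK one because it held an AP-1 word and the BTK one because it was the only decreased region over coding exons of the 9 genes.
SYK intron 3 region, chr9:93623251-93623450, forward strand: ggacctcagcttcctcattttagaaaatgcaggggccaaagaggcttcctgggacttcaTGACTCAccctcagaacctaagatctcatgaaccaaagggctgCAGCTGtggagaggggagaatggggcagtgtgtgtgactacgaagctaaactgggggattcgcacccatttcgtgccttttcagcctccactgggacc
BTK exons 11 to 14 region, chrX:100612877-100613076, reverse strand: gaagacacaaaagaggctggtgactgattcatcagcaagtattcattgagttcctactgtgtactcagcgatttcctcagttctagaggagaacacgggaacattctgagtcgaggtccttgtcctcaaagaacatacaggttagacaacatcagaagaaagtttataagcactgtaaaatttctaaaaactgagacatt

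The AP-1 word was found in 4.52% of the centres of all decreased regions and in 1 of the 6 here. The BTK centre held none of the words.

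The 2 adaptor genes had the fewest regions, 1 each. BLNK occupies chr10:97948927-98031344, read in reverse. Its region, chr10:98019499-98020331 in intron 1, was increased in VAL after 8 h, and OCI-LY3 had 0 regions. PIK3AP1 occupies chr10:98353072-98480271, also read in reverse. Its region, chr10:98426134-98427188, lay in intron 2 of the canonical transcript, 2180 bp from the TSS of a shorter annotated transcript, and was decreased in OCI-LY3 after 3 h but not listed after 8 h. VAL had 0 regions at PIK3AP1 at either time. On chromosome 10, 49.0% of listed regions were increased in VAL after 8 h and 36.4% in OCI-LY3 after 3 h. The density of regions over all lists was 10.8 per Mb for BLNK and 7.29 for PIK3AP1, the lowest of the 9 genes, against 149 for CD79B, the highest. These densities rest on 1, 1 and 3 regions in windows of 92.4, 137 and 20.1 kb, so they depend on window size.

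The centres of both are shown because each was the single region of its gene, and they went in opposite directions.
BLNK intron 1 region, chr10:98019815-98020014, reverse strand: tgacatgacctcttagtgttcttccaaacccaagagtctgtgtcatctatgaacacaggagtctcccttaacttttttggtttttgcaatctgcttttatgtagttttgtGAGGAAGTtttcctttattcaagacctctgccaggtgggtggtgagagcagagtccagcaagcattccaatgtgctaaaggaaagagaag
PIK3AP1 intron 2 region, chr10:98426561-98426760, reverse strand: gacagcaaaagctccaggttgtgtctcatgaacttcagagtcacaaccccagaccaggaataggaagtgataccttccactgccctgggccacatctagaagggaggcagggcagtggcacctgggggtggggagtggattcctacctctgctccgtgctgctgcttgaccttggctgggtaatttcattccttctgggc

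The BLNK centre held the PU.1 or SpiB word in 1 copy. The word was found in 1.88% of the centres of all increased regions. The PIK3AP1 centre held none of the words searched.

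The 2 enzyme genes at the end of the chain had increased regions only. PLCG2 (chr16:81812884-81996290, read forward) had 5. The region over its TSS, chr16:81812080-81814132, was increased in VAL after 8 h. A region in intron 1, chr16:81817238-81818178, was increased in VAL after 3 h and not listed after 8 h. The region chr16:81843870-81844756, over the TSS of shorter transcripts inside intron 2, was increased in VAL after 3 and 8 h. The region chr16:81907036-81908364 in intron 7 was increased in VAL after 8 h. The single PLCG2 region of OCI-LY3, chr16:81870078-81871261 in intron 2, was increased after 8 h and was not listed in VAL, so 0 of the 5 were shared by the lines. Chromosome 16 also had mostly increased regions, 96.9% in VAL after 8 h and 93.6% in OCI-LY3 after 8 h, and what part this played was not tested.

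PIK3CD (chr1:9689947-9789172, read forward) had 6 regions, the most of the 9 genes. All 6 were increased in VAL after 8 h and 0 in VAL after 3 h. Only 0.496% of protein-coding genes had as many increased regions in VAL after 8 h. They were the region over the TSS of the canonical transcript, chr1:9711720-9713233, 1 region in intron 1 at 29.2 kb, 2 regions in introns 2 and 3 at 52.9 and 63.2 kb, and 2 regions over coding exons at 65.8 kb (exons 7 and 8) and 69.7 kb (exons 14 to 16). The 1 at 63.2 kb was the narrowest of the 27 regions, at 669 bp. The region in intron 1, chr1:9740478-9741556, was increased in OCI-LY3 too, after 3 and 8 h, and so was listed earlier in OCI-LY3 than in VAL. It was the only PIK3CD region listed in OCI-LY3. On chromosome 1, 62.8% of listed regions were increased in VAL after 8 h.

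The PLCG2 promoter is shown because a listed region covered its main TSS, and the centre of the PIK3CD intron 1 region as the only region outside the receptor chains that was listed in both lines.
PLCG2 promoter, chr16:81812634-81812883, forward strand: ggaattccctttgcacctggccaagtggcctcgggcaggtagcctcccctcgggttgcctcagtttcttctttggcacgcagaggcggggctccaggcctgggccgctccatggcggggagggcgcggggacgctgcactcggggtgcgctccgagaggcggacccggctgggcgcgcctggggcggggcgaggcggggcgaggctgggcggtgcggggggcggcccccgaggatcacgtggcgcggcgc
PIK3CD intron 1 region, chr1:9740917-9741116, forward strand: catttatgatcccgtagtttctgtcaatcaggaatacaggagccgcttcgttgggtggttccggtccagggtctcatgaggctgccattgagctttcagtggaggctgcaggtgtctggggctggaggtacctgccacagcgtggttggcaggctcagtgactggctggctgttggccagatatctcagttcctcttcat

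Both sequences held none of the words. The PLCG2 promoter stretch was 76.0% GC, against 64.0% for that of CD79A.

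**Figure D3:**
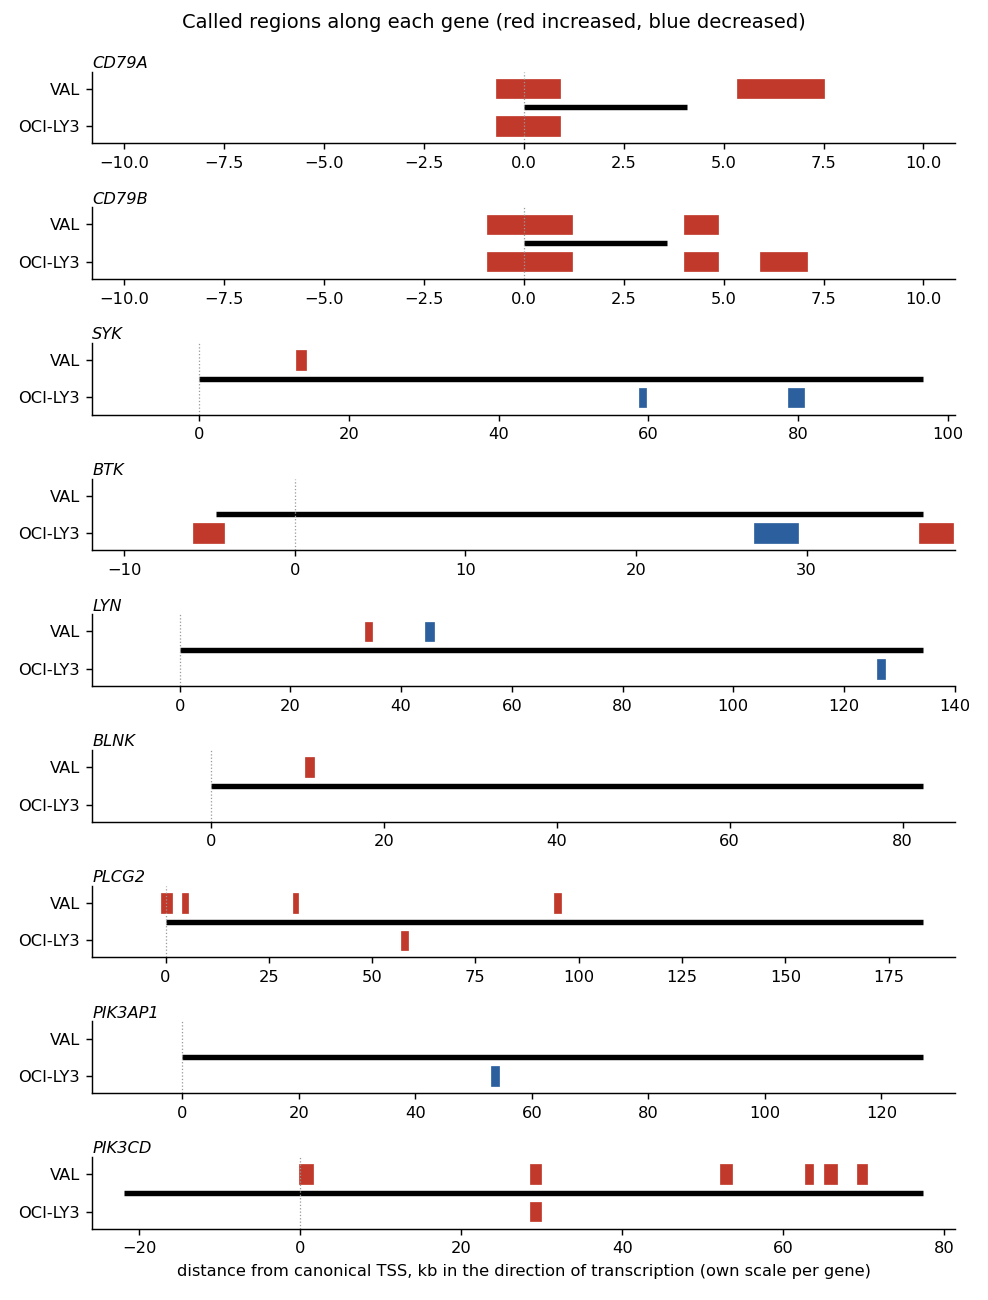
Called regions along each of the 9 genes, with distance from the canonical TSS in kb in the direction of transcription on the horizontal axis, on its own scale for each gene. The black line is the annotated gene, boxes above it are regions listed in VAL at either time and boxes below it regions listed in OCI-LY3, red for increased and blue for decreased. The 6 blue boxes lie inside gene bodies, at 28.2 kb or more from the canonical TSS.

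By position, both directions were found far inside gene bodies. Of the 27 regions, 6 covered an annotated TSS of 1 of the 9 genes, at CD79A, CD79B, BTK, PIK3CD and 2 sites of PLCG2, and all 6 were increased. Counting neighbouring genes, 8 of the 21 increased regions (38.1%) and 0 of the 6 decreased regions lay within 1000 bp of a TSS, where the shares over the whole series were 36.9% and 7.33%. These shares were near those of the series, and the other increased regions lay as far as 94.8 kb (PLCG2) from the canonical TSS. By gene, 3 of 9 had an increased region within 1000 bp of their own TSS in VAL after 3 h against 10.3% of all protein-coding genes, and 4 of 9 after 8 h against 25.1%. In OCI-LY3 it was 2 of 9 after 3 h against 5.92%, and 2 of 9 after 8 h against 9.3%. Decreased regions within this distance were found at 0 of 9 genes in all 4 comparisons, where the shares of all genes were 0.322% and 3.38% in VAL after 3 and 8 h and 0.694% and 1.28% in OCI-LY3. At shares this low, 0 of 9 does not set these genes apart.

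The increased regions spanned 41.1% to 69.4% GC with a median of 51.9%, below the median of 56.2% over all increased regions. The decreased ones spanned 42.3% to 54.0% with a median of 46.1%, above the median of 41.4% over all decreased regions. The range of the decreased regions lay inside that of the increased ones. In width the 27 regions ran from 669 to 2438 bp with a median of 1184 bp, against 1309 bp over the whole series.

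**Figure D4:**
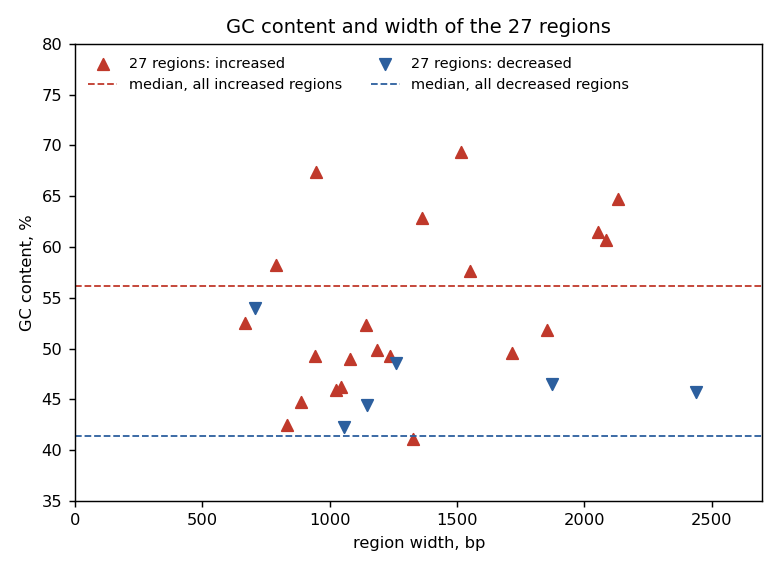
GC content in percent against width in bp for the 27 regions, red triangles pointing up for increased and blue triangles pointing down for decreased regions. Dashed lines give the medians of all increased (56.2%) and all decreased (41.4%) regions of the series, and regions of both directions lie between the lines.

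Sharing between the lines differed by gene. Of the 27 regions, 14 were listed in VAL only, 9 in OCI-LY3 only and 4 in both, and the 4 were the TSS region of CD79A, the first 2 regions of CD79B and the intron 1 region of PIK3CD, all increased. At 3 h, 1 region, at the CD79B TSS, was listed in the same direction in both lines, which is 16.7% of the 6 in VAL and 12.5% of the 8 in OCI-LY3. Over the whole series these shares were 18.9% and 28.5%. At 8 h the 4 made up 23.5% of the 17 regions in VAL and 44.4% of the 9 in OCI-LY3. Over the whole series the shares after 8 h were 16.8% and 43.7%. With 1 and 4 shared regions, the shares at these genes were near those of the series except in OCI-LY3 after 3 h, where 1 of 8 was shared. In each line the 3 h and 8 h calls rest on the same untreated libraries.

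Among 56 further genes of the pathway (co-receptors, inhibitory receptors and phosphatases, adaptors, and downstream branches), 49, or 87.5%, had at least 1 region in any list, where 57.0% of all protein-coding genes had one. Their median window was 96.8 kb. In VAL after 8 h, 25 of the 56 had an increased region (44.6%, against 36.9% of all genes) and 19 a decreased one (33.9%, against 14.2%). Counted by region the balance was the other way, with 66 increased and 71 decreased regions, or 48.2% increased, against 54.6% over all listed regions and 94.1% at the 9 genes. In the other comparisons increased regions of the 56 genes were in the majority, with 31 against 7 in VAL after 3 h (81.6%, where it was 66.5% over all listed regions), 11 against 8 in OCI-LY3 after 3 h (57.9%, where it was 52.5%) and 30 against 11 in OCI-LY3 after 8 h (73.2%, where it was 55.8%). Of the 56 genes, only ITPR2, an inositol trisphosphate receptor, had regions of both directions in VAL after 8 h. VAV3 and PAG1 were the genes with both in OCI-LY3 after 8 h. In OCI-LY3 after 8 h, 23 had an increased region (41.1%, against 19.0% of all genes) and 8 a decreased one (14.3%, against 8.18%). At 3 h, 17 had an increased region (30.4%, against 16.9%) and 6 a decreased one (10.7%, against 4.7%) in VAL, and the numbers in OCI-LY3 were 10 (17.9%, against 10.6%) and 6 (10.7%, against 5.29%).

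The co-receptor gene CD81, which encodes a tetraspanin of the B-cell membrane, had 3 increased regions in VAL after 3 h, 4 after 8 h and 1 in OCI-LY3 after 8 h. PTPN6, which encodes the inhibitory phosphatase SHP-1, had 3 increased regions in VAL after 8 h and 1 in OCI-LY3 at each time. DOK3, an inhibitory adaptor, had 1 increased region in VAL at each time and in OCI-LY3 after 8 h.

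Members of the VAV family went in opposite directions in VAL. VAV2, a guanine nucleotide exchange factor, had 10 increased regions in VAL after 8 h and 6 after 3 h, and VAV1 had 4 and 1, while VAV3 had 5 decreased regions in VAL after 8 h. In OCI-LY3, VAV3 had 1 increased region after 3 h, and 1 increased and 1 decreased after 8 h. AKT1, a kinase downstream of phosphoinositide 3-kinase, had 2 increased regions in VAL after 8 h and 1 in OCI-LY3 at each time. The adaptors GRB2 and LAT2 had 6 and 4 increased regions in VAL after 8 h, and GRB2 had 4 in OCI-LY3 after 8 h. In contrast the docking adaptors GAB1 and GAB2 had 9 and 3 decreased regions in VAL after 8 h, although GAB1 had 1 increased region in VAL after 3 h. ITPR3 had 3 increased regions in VAL at each time and 2 in OCI-LY3 at each time. ITPR2 had 4 decreased regions in VAL after 8 h, although it also had 1 increased region in VAL at each time.

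Other genes with several decreased regions in VAL after 8 h were DAPP1 with 7, BANK1, PPP3CA and PAG1 with 6 each, PTPRC with 5 and RASGRP3 with 4. DAPP1 and BANK1 are B-cell adaptors, PPP3CA is the catalytic subunit of calcineurin, PAG1 anchors the kinase CSK, PTPRC is the phosphatase CD45, and RASGRP3 activates Ras. BANK1, GAB2 and PAG1 had regions decreased in both lines after 8 h, 1 region each for the first 2 and 3 for PAG1. MAPK3, a kinase of the MAP kinase branch, and NFATC2, a factor activated by calcineurin, had 3 and 2 increased regions in VAL after 8 h, and 1 and 2 in OCI-LY3 after 8 h.

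The GC content of the regions moved with the direction of the gene. The 24 genes with only increased regions in VAL after 8 h had median GC contents of 38.9% to 74.2% over all their listed regions, with a median of 59.7%, and the 18 with only decreased regions had 34.3% to 44.6%, with a median of 38.5%. The share of increased regions on the chromosome moved with it too, with a median of 78.8% (29.5% to 99.6%) for the 24 genes and 28.2% (15.8% to 62.8%) for the 18, so the ranges overlapped. The part of base composition and of the chromosome in these calls was not tested.

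**Figure D5:**
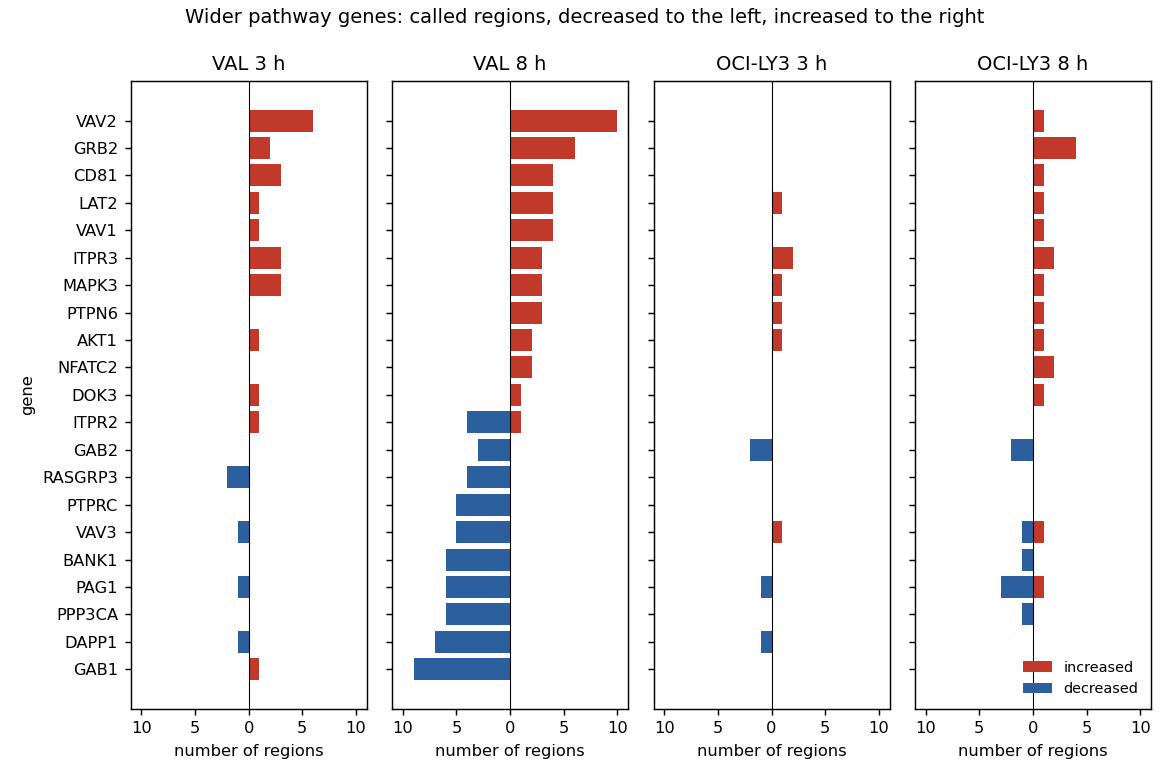
Number of listed regions at 21 further genes of the pathway, chosen among those with a region listed the same way in both lines at the same time or with 4 or more regions in 1 comparison, with 1 panel per comparison. Red bars to the right count increased and blue bars to the left decreased regions, and in VAL after 8 h the bars run from 10 increased regions at VAV2 to 9 decreased regions at GAB1.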

How the data were processed

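ATAC-seq libraries were made from VAL and OCI-LY3 cells at 0, 3 and 8 h of AZD4573. For each sample the authors mapped reads with bowtie2 (hg19), dropped duplicates and reads that were mitochondrial or not uniquely placed, and called peaks with MACS2. The authors merged and counted peaks with bedtools, and the authors' comparison of each time with 0 h of the line used DESeq2. Tool versions, any shift of reads for the transposase and a term for the library protocol are not given in the sources used here. The authors deposited 8 lists of region coordinates, with no score, p-value or value of any library, called at a fold change above 1.5 and an adjusted p limit stated as 0.05 in a figure legend and 0.01 in the methods text. Depth is unknown.

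Coordinates were written from 1. Sequence was GRCh37 and annotation GENCODE release 44 lifted to that build, with 0 regions past a chromosome end. TSS were those of transcripts tagged basic, and an overlap was 1 shared base or more. Regions were the same in different lists when coordinates were equal. Counts were made in Python 3.11.15 with numpy 2.4.6, pandas 2.3.3 and pysam 0.24.0, and overlap and motif code was tested on simulated data. No test between groups was made. The genes, the wider list and the motif words were chosen with earlier results of these data known. Named were the 9 genes and, of the wider list, genes with a region listed the same way in both lines at 1 time or with 4 or more regions in 1 comparison. Some genes and a sequence that met these rules are not reported here. Distances, transcripts, merging, overlap and motif window were varied.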

Additional observations from a re-analysis of the deposited data

How the results depend on the processing

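Counts were recomputed with TSS windows of 5 and 25 kb, without gene bodies, with all transcripts, with regions within 1 kb merged, with any shared base or 50% reciprocal overlap, and with promoter distances of 500 and 2000 bp. Of 50 such counts, 3 moved by more than 1.5 times. Without gene bodies the decreased regions became 0 in VAL after 8 h, 1 in OCI-LY3 after 3 h and 0 in OCI-LY3 after 8 h, since by construction only regions near a TSS then remain. Of 9 motif counts, 8 rose over whole regions, which search more sequence. A stricter threshold was not run, as the lists hold no score, and libraries could not be left out. No paired analysis was possible because the lists hold no value of any library.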

Other observations

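The surroundings of the 9 genes, within 100 kb beyond their windows, differed from gene to gene. Beside LYN, 4 regions were decreased and 0 increased in VAL after 8 h. The nearest lay 1.61 kb past the LYN window, at chr8:56928341-56929351, and was decreased in VAL after 3 and 8 h. Beside CD79A, 6 regions were increased in VAL after 8 h and 6 in OCI-LY3 after 8 h, with 0 decreased in either. Beside PIK3CD, 7 regions were increased in VAL after 8 h and 3 in OCI-LY3 after 8 h, again with 0 decreased. The share of increased regions on the chromosome of LYN was 29.5% in VAL after 8 h. In VAL and OCI-LY3 after 8 h it was 99.4% and 98.7% for CD79A, and 62.8% and 59.1% for PIK3CD. The part of this background in the flanking calls was not tested. BTK had 0 listed regions within this distance, the nearest being 195 kb away. The nearest region outside the PIK3AP1 window, chr10:98345719-98347822, lay 5.25 kb beyond it and was increased in VAL after 8 h, while the region inside the gene was decreased in OCI-LY3 after 3 h.

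Over whole regions the PU.1 or SpiB word GAGGAAGT was found in 8 of the 27 regions (29.6%), where 12.3% of all listed regions held it. The regions were the TSS and outermost regions of CD79B, 2 of BTK, 2 of PLCG2, 1 of PIK3CD and that of BLNK. The E-box CAGCTG was found in 19 of 27 (70.4%) against 51.9% of all regions, and the NF-kB word in 0 against 5.44%. For the EBF1 word the share was 11.1% against 4.71%. Lower shares than over all regions were found for the ETS-IRF composite (7.41% against 15.4%) and the IRF word (7.41% against 19.6%). The octamer (11.1% against 12.3%), AP-1 (14.8% against 19.3%) and CTCF core (25.9% against 29.6%) words were lower too. These shares are descriptions with no test, and regions of 1 gene are not independent.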
